A study of Mus musculus with 8 samples.

Results

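The genes of actin, myosin, tropomyosin, calponin and transgelin were followed in isolated epididymal white adipocytes of mice. They were chosen as the protein-coding genes of the deposited table whose symbol names an actin (Acta1, Acta2, Actb, Actc1, Actg1, Actg2), a myosin heavy chain (Myh and a digit), a myosin light chain (Myl and a digit), a tropomyosin (Tpm1 to Tpm4), a calponin (Cnn1 to Cnn3) or a transgelin (Tagln and its relatives). This gave 39 genes of the 30387 in the table. Of these, 31 averaged 5 or more normalized counts and were tested, and 8 did not pass this limit and are given by their range. Myh6 and Myl10 were not analysed here.

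The RNA came from wild-type littermates (WT) and from Ad-Yap/Taz-KO mice (KO), which carry floxed alleles of both genes (Yap fl/fl and Taz fl/fl) with Adipoq-Cre, so that Cre recombinase under the adiponectin promoter deletes the transcriptional cofactors YAP and TAZ in adipocytes. The mice were fed standard chow (SD, labelled normal chow) or a high-fat diet (HFD) for 4 weeks, from week 5 of age according to the description of the data set. The 4 groups were thus WT on SD, KO on SD, WT on HFD and KO on HFD, with 2 libraries each, and values below are given as replicate 1 and replicate 2. The adiponectin promoter is active in mature adipocytes, so other cells left in the preparation are not a target of the deletion.

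Actin filaments are built from actin monomers, and myosin II motors, made of heavy chains with essential and regulatory light chains, slide along them. Tropomyosins run along the filament and decide which myosins and severing factors reach it, and calponins and transgelins bind filaments and steady them. Cytoplasmic actins and nonmuscle myosins are found in nearly every cell, the smooth muscle forms (Acta2, Myh11, Tagln, Cnn1) mark vessel walls and contractile fibroblasts, and the striated forms mark skeletal and cardiac muscle. The transcription factor SRF with its cofactors of the MRTF family switches on many of these genes through a DNA element called the CArG box, and YAP and TAZ act through TEAD factors. Tension in actin filaments is in turn a known regulator of YAP and TAZ.

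The libraries summed to between 14890264 and 20994246 normalized counts (gene counts divided by a size factor, rounded by the authors), which rest on about 14.0 to 22.3 M reads on genes. Wwtr1, which encodes TAZ, reached 5594 and 4743 normalized counts for WT on SD, 2441 and 1957 for KO on SD, 7121 and 6807 for WT on HFD and 2060 and 2707 for KO on HFD, so both knockout libraries lay below both WT libraries on each diet. Yap1 had 2776 and 2717, 1669 and 1699, 2468 and 2333, and 1549 and 2068 in the same order. In the limma fit described below, Yap1 was called lower in KO on SD (log2 fold change -0.705, adjusted p = 0.024). On HFD it was not called (-0.423, adjusted p = 0.059). The libraries of a group came from different mice. The WT HFD libraries stood closer to each other than any other pair: among genes with 1000 to 5000 normalized counts the squared difference was 5.64 times the counting expectation, against 17.01 to 55.66 times in the other groups. Each main count was therefore also taken with these libraries taken as 1 sample. Changes were tested with limma on log2(normalized count + 1), which understates the change of low genes, and p-values were adjusted by Benjamini-Hochberg over all genes. A call needed an adjusted p no higher than 0.05 and a log2 fold change (log2FC) that reached 0.59 up or down; SE is its standard error. With 2 libraries against 2 an exact two-sided permutation test cannot go below 0.333, and the p-values given are those of the model fitted to all genes.

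Sequences upstream of the start were looked at for the members that RefSeq holds in a window from 250 bases before to 50 bases after the transcription start. 35 of the 39 genes matched, with 39 windows. The CArG box, whose pattern is the same on both strands, was found in 10 of these windows, 25.64%, and in 1.63% of all 32851 RefSeq windows of this kind. The TEAD motif, GGAATG or CATTCC for both strands, was found in 13 of the windows, 33.33%, and in 14.66% of all. A match is a description of letters and says nothing of a factor being there. Among members called in the comparisons below, the stretches of Acta1, Myl9 and Cnn2 are shown because each carries a match before the RefSeq start and upstream of the gene as the deposited table and GENCODE vM21 place it, and they are written 5′ to 3′ in the direction of the gene with the matched letters in capitals (RefSeq, GRCm38.p6). None of the matches shown overlaps another.
Acta1, chr8:123894776-123894955, minus strand, a CArG box 73 bases before the start and a TEAD motif 46 bases before it: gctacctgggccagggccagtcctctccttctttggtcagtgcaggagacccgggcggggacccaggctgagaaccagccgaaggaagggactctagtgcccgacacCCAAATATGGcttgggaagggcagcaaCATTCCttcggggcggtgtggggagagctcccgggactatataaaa
Myl9, chr2:156775284-156775419, plus strand, a CArG box 161 bases before the start: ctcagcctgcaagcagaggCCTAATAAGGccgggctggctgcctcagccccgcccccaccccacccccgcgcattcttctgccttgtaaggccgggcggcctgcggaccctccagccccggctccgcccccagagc
Cnn2, chr10:79988420-79988583, plus strand, a CArG box 56 bases before the start: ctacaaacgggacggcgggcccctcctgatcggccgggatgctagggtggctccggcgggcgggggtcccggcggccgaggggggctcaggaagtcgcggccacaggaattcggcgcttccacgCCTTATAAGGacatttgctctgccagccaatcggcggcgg

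Per kb of exon, Actb, the main cytoplasmic actin, stood far above the other genes, with a mean level of 14870 normalized counts per kb over the libraries, or 62.1% of the summed level per kb of all 39 genes. Tpm4 (1383), the nonmuscle heavy chain Myh9 (1082) and the other cytoplasmic actin Actg1 (1012) came next in mean normalized counts per kb, followed by Tagln2 (722), the essential light chain Myl6 (638.1), the regulatory light chain Myl12a (627.1), Tpm3 (540.2) and Acta2 (476.1). The smooth muscle heavy chain Myh11 had a mean level of 208 and Tagln one of 189.2 normalized counts per kb. The order at the top depended on the group: Tpm4 ranged from 760.3 to 2351 normalized counts per kb in single libraries, and Actg1 from 744.2 to 1189, so that these neighbours overlap. Part of this order is uncertain, because 33.5% of the 75-base stretches of Actg1 also occur in transcripts of other genes, as do 24.7% of those of Myl12b, 19.1% of Tpm3, 18.5% of Myl12a, 16.1% of Cnn3 and 12.1% of Tpm4, and reads aligned to several places were not counted.

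**Figure D1:**
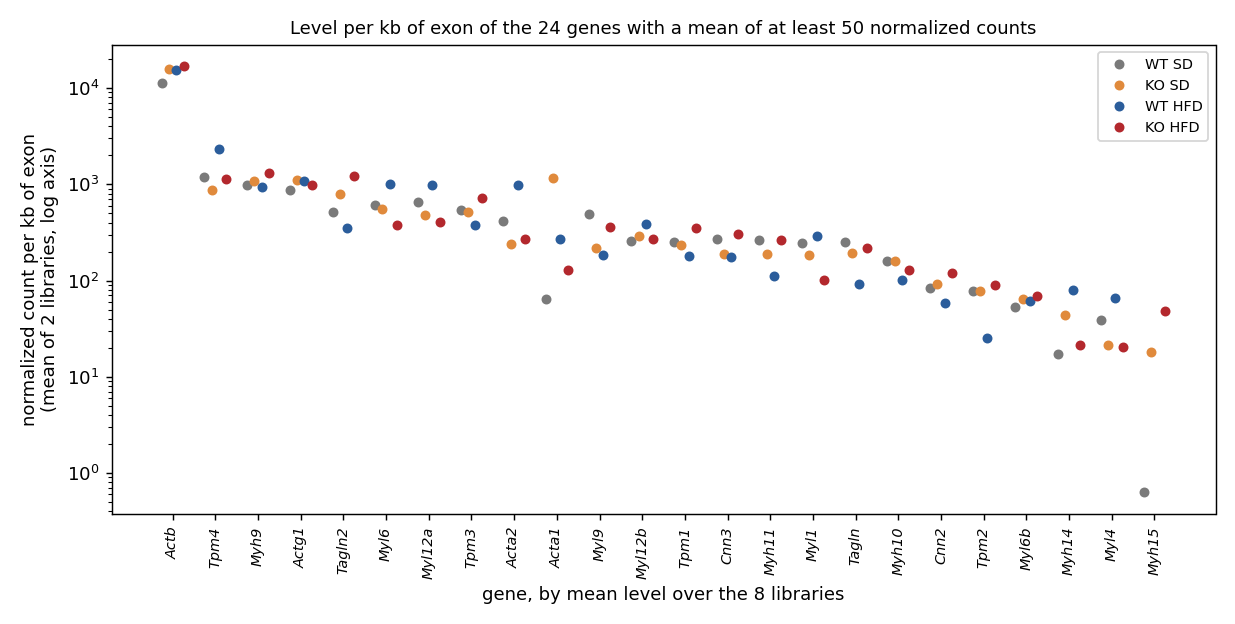
Normalized count per kb of exon (log axis) of the 24 members that average 50 normalized counts or more, each point the mean of the 2 libraries of a group. Actb lies highest with a mean of 14870 over the 8 libraries, and Acta1 is spread widely between groups. Myh15 is listed at 0 in WT on HFD and has no point there.

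Between KO and WT on HFD, 19 of the 31 tested genes, 61.3%, were called, against 32.2 percent of all genes tested. Of these 19, 10 were higher in KO (17.1 percent of all genes) and 9 lower (15.1 percent of all genes). Markers of other cells also differed between the genotypes, as given below, and their part in the changes was not tested. The rises held 3 of the 4 tropomyosins (Tpm1, Tpm2, Tpm3), Tagln and Tagln2, the calponins Cnn2 and Cnn3, the smooth muscle chains Myh11 and Myl9, and Myh15. The falls held Acta2, Myh14, the light chains Myl6 and Myl12a, Tpm4, Myl1 and Myl4, and, with calls that several alternatives did not keep, Acta1 and Myh1. The median log2FC of the members was 0.37, and that of all genes 0.10. Averaging the WT HFD libraries left 12 members called, and so did leaving out WT HFD replicate 1. Scaled to the same total, which moved the median of all genes by 0.37, the split was 12 higher and 7 lower.

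Acta2, smooth muscle alpha-actin (chr19:34241090-34255336, GRCm38), had 2230 and 2048 normalized counts in WT on HFD and 408 and 787 in KO on HFD. Both knockout libraries were below both WT libraries, by a log2FC of -1.91 (SE 0.37, adjusted p = 0.0018). On SD it had 1272 and 554 in WT and 666 and 399 in KO, where the groups overlapped and the log2FC of -0.70 was not called (adjusted p = 0.37).

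Tagln, Myh11 and Myl9, also of the smooth muscle type, were higher in KO on HFD. Tagln, whose product is also called SM22alpha (chr9:45929628-45936058), had 175 and 187 normalized counts for WT and 346 and 515 in KO on HFD, a log2FC of 1.22 (SE 0.36, adjusted p = 0.019). Myh11, the smooth muscle heavy chain (chr16:14194527-14291408), had 824 and 879 in WT and 1401 and 2650 in KO on HFD, a log2FC of 1.18 (SE 0.28, adjusted p = 0.006). Myl9, the smooth muscle regulatory light chain (chr2:156775420-156781658), had 169 and 261 in WT and 332 and 507 in KO, a log2FC of 0.96 (SE 0.29, adjusted p = 0.024). None of these 3 genes was called when the WT HFD libraries were averaged, or without WT HFD replicate 1 or KO HFD replicate 2. Tagln and Myl9 were also not called without a filter on low values, nor was Myl9 in a fit of only the 2 groups compared. Tagln is uncertain, because 53.3% of its 75-base stretches occur in other transcripts and 67.9% of its exon bases are covered on the opposite strand. Whether counting used the strand is not stated. Per kb of exon, Acta2 in WT on HFD stood at 1015 and 932.6 normalized counts per kb and Tagln at 88.03 and 94.06.

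Among the light chains of nonmuscle myosin, Myl6 and Myl12a fell on HFD. Myl6, the essential light chain (chr10:128490860-128493875), had 3333 and 3113 normalized counts for WT and 1415 and 989 in KO, a log2FC of -1.44 (SE 0.18, adjusted p = 6.9e-05). Myl12a, a regulatory light chain (chr17:70993656-71002878), had 3230 and 3342 in WT and 1429 and 1303 in KO, a log2FC of -1.27 (SE 0.15, adjusted p = 3.7e-05). Myl12b, its near-identical neighbour, had 1088 and 1068 against 714 and 780, a log2FC of -0.53 that stayed below the fold limit (adjusted p = 0.039). The calls of Myl6 and Myl12a held under each of the 11 alternatives.

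The heavy chains went different ways. Myh14, nonmuscle myosin heavy chain IIC (chr7:44605803-44670843), had 564 and 588 normalized counts for WT and 211 and 103 in KO on HFD, a log2FC of -1.96 (SE 0.34, adjusted p = 0.00093), and was called under each alternative. Myh9, the IIA chain, had 12354 and 12163 against 16191 and 17860, a log2FC of 0.47 below the fold limit (adjusted p = 0.045). Myh10, the IIB chain, had 1003 and 1093 against 1233 and 1479 and was not called (0.37, adjusted p = 0.16). Myh15 (chr16:49057486-49199104), a heavy chain of the muscle type, stood at 0 in each WT library on HFD and had 250 and 365 normalized counts in KO, at least 102-fold higher when the WT value is set at 3 reads per library (adjusted p = 9.4e-06).

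**Figure D2:**
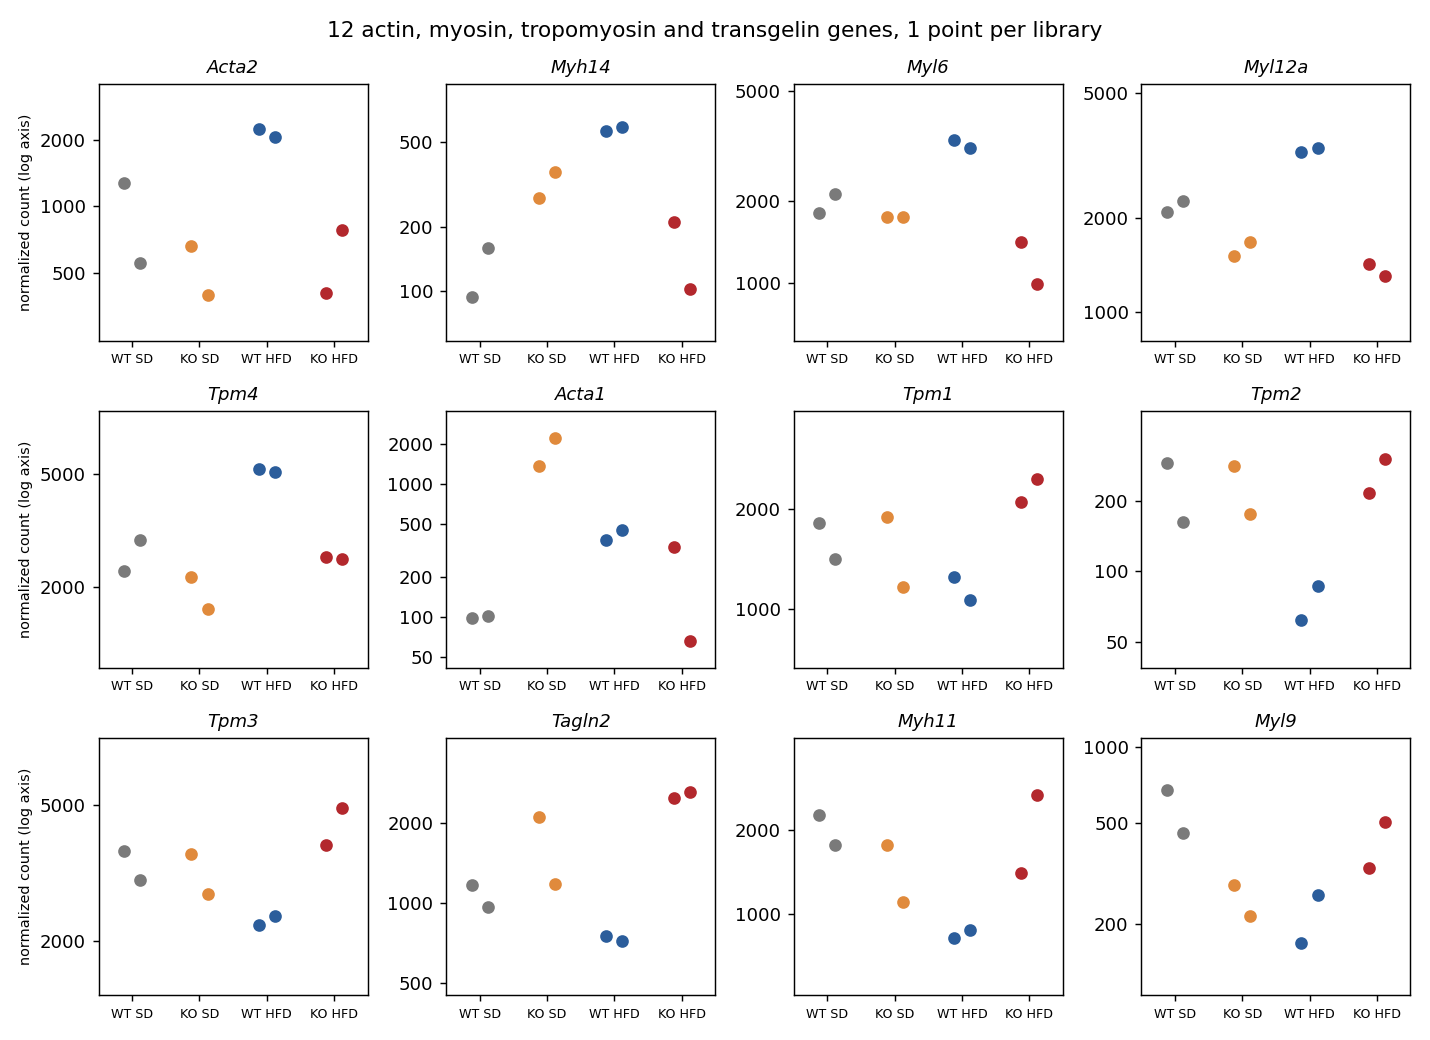
Normalized counts (log axis) of 12 members in each of the 8 libraries, 1 point per library, by group. On HFD both KO libraries lie below both WT libraries in the panels of Acta2, Myh14, Myl6, Myl12a, Tpm4 and Acta1 and above them in those of Tpm1, Tpm2, Tpm3, Tagln2, Myh11 and Myl9.

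The tropomyosins shifted in opposite directions. Tpm4, a cytoplasmic tropomyosin (chr8:72134975-72153142), had 5180 and 5076 normalized counts for WT and 2559 and 2503 in KO on HFD, a log2FC of -1.02 (SE 0.17, adjusted p = 0.00069). Tpm3 (chr3:90072649-90100902) had 2217 and 2362 in WT and 3803 and 4909 in KO, a log2FC of 0.92 (adjusted p = 0.002). Tpm1 (chr9:67022590-67049406) rose from 1247 and 1066 to 2103 and 2469, by a log2FC of 0.98 (adjusted p = 0.0044). Tpm2, best known from muscle (chr4:43514711-43523765), rose from 62 and 87 to 217 and 304, by 1.79 (SE 0.35, adjusted p = 0.0019). Each of these 4 calls held under the 11 alternatives, although Tpm1 was not called without WT HFD replicate 2. The table has 1 value a gene, so isoforms of a tropomyosin gene cannot be told apart.

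Tagln2, a transgelin of many nonmuscle cells (chr1:172500047-172507380), had 751 and 724 normalized counts for WT and 2501 and 2621 in KO on HFD, a log2FC of 1.79 (SE 0.23, adjusted p = 8e-05), called under each alternative. The calponins Cnn2 (126 and 162 against 322 and 271, log2FC 1.04, adjusted p = 0.016) and Cnn3 (546 and 527 against 773 and 1073, 0.76, adjusted p = 0.033) were not called with the WT HFD libraries averaged. Cnn2 was not called without WT HFD replicate 1 or KO HFD replicate 1, nor was Cnn3 without any 1 of the WT libraries or KO HFD replicate 2. Of the exon bases of Cnn3, 17.7% are covered on the opposite strand by Gm42928, so its values share the doubt about strand given for Tagln. Cnn1, the smooth muscle calponin, had 5 and 1 normalized counts for WT and 6 and 25 in KO on HFD and was not called (adjusted p = 0.23). Tagln3, known from neurons, was at 2 to 14 normalized counts in every library and was not called in any comparison.

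Among the muscle light chains, Myl1 had 533 and 663 normalized counts for WT and 307 and 111 in KO on HFD (log2FC -1.68, adjusted p = 0.0059), and Myl4, the atrial and embryonic chain, had 262 and 349 against 118 and 72 (-1.70, adjusted p = 0.0024). Without WT HFD replicate 2 or without KO HFD replicate 2 Myl1 was not called. Myl6b had 126 and 99 against 184 and 69, overlapping groups with a log2FC of 0.01 (adjusted p = 0.99). Acta1, skeletal alpha-actin, had 376 and 445 in WT and 334 and 66 in KO on HFD, and its log2FC of -1.45 (adjusted p = 0.048) was lost under 9 of the 11 alternatives and without any 1 library other than KO HFD replicate 1. Myh1, a skeletal heavy chain, was at 12 and 7 for WT and 1 and 4 for KO on SD. On HFD it had 24 and 12 against 0 and 2 (adjusted p = 0.033) and was lost under 4 alternatives and without either WT HFD library or KO HFD replicate 1, with 20.9% of its 75-base stretches shared with other genes.

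The cytoplasmic actins were not called in any comparison. Actb (chr5:142903115-142906754) had 26109 and 34989 normalized counts in WT on SD, 43954 and 39930 in KO on SD, 41139 and 41491 in WT on HFD and 47664 and 43316 in KO on HFD. The log2FC between genotypes was 0.14 on HFD (95% interval -0.29 to 0.56, adjusted p = 0.62) and 0.47 on SD (0.05 to 0.90, adjusted p = 0.24). Actg1 had 1978 and 2650, 3161 and 2763, 2824 and 2925, and 2377 and 2834 in the same order, with a log2FC of -0.15 on HFD (-0.52 to 0.23, adjusted p = 0.54).

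Between KO and WT on SD, 4 of the 31 genes, 12.9%, were called, against 4.71 percent of all genes tested. Acta1, Myh14 and Myh15 were higher in KO (3.21 percent of all genes were higher) and Myl9 lower (1.5 percent were lower). Macrophage markers were also higher in KO on SD, as given below, and their part was not tested. Acta1 (chr8:123891769-123894751) had 97 and 101 normalized counts for WT and 1359 and 2207 in KO, with both knockout libraries far above, a log2FC of 4.12 (SE 0.52, adjusted p = 0.00046). Myh15 had 1 and 7 against 163 and 66 (4.71, adjusted p = 0.0035). Both were called under each of the 11 alternatives. Myh14 had 94 and 160 against 275 and 364 (1.36, adjusted p = 0.041) and Myl9 676 and 456 against 286 and 216 (-1.16, adjusted p = 0.043), and both calls were lost under 6 of the 11 and without any 1 of the SD or WT HFD libraries. The count was 2 with the WT HFD libraries averaged and without any 1 of the WT libraries, of either diet.

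The other members were not called between genotypes on SD. Counting called and uncalled members, both KO libraries lay above both WT libraries in 6 of 31, against 22.8 percent of all genes tested, and below them in 9, against 22.2 percent. Myl6 was at 1806 and 2120 normalized counts for WT against 1746 and 1746 for KO, both lower, Myl12b at 605 and 815 against 865 and 756, and Myl6b at 119 and 78 against 139 and 101. Myl12a, at 2089 and 2270 against 1515 and 1679, was lower in both KO libraries, but its log2FC of -0.45 missed both limits (adjusted p = 0.12). Myl1 was at 381 and 647 against 310 and 447, where the groups overlapped. Myl4, at 141 and 224 against 83 and 115, was lower in both KO libraries (-0.86, adjusted p = 0.22).
Of the heavy chains, Myh9 was at 12970 and 12589 normalized counts for WT against 15740 and 12007 for KO on SD, Myh10 at 1515 and 1840 against 1395 and 1979, and Myh11 at 2262 and 1758 against 1767 and 1103. Of the tropomyosins, Tpm1 was at 1814 and 1418 against 1893 and 1162, Tpm2 at 290 and 162 against 282 and 176, and Tpm3 at 3649 and 3014 against 3597 and 2747. The difference of Tpm3 was -0.08 on the log2 scale, with a 95% interval of -0.47 to 0.32. Tpm4, at 2278 and 2930 against 2179 and 1675, was lower in both KO libraries, with a log2FC of -0.43 (adjusted p = 0.21). Cnn2 was at 196 and 217 against 292 and 163, and Tagln at 694 and 318 against 494 and 280. Cnn3, at 832 and 805 against 746 and 412, was lower in both KO libraries. Tagln2, at 1169 and 970 against 2109 and 1181, was higher in both KO libraries (0.57, adjusted p = 0.22), as were Actb and Actg1, given above.

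HFD against SD in WT moved 12 of the 31 genes, 38.7%, against 18 percent of all genes tested. The 7 that rose (8.74 percent of all genes were higher) were Acta1, Acta2, Myh14, Myl6, Myl12a, Myl12b and Tpm4, and the 5 that fell (9.22 percent were lower) were Myh10, Myh11, Myl9, Tagln and Tpm2. Myh14 rose most, by a log2FC of 2.22 (adjusted p = 0.0016), from 94 and 160 to 564 and 588 normalized counts, and it was the only one of the 12 called under each of the 11 alternatives. Tpm4 went from 2278 and 2930 to 5180 and 5076 (0.99, adjusted p = 0.003) and Acta2 from 1272 and 554 to 2230 and 2048 (1.35, adjusted p = 0.025). Myl6 went from 1806 and 2120 to 3333 and 3113 (0.72, adjusted p = 0.016). Acta1 went from 97 and 101 to 376 and 445 (2.04, adjusted p = 0.019). Myh11 went the other way, from 2262 and 1758 to 824 and 879 (-1.23, adjusted p = 0.011), as did Tpm2, from 290 and 162 to 62 and 87 (-1.55, adjusted p = 0.011). Between SD and HFD in WT, the summed endothelial markers went from 29069 and 23868 to 14401 and 15042 normalized counts, the fibroblast and progenitor markers from 14186 and 12255 to 8127 and 8387, the macrophage markers from 5083 and 4840 to 2191 and 2290 and the adipocyte markers from 207499 and 213842 to 378002 and 369863. The smooth muscle and mural markers summed to 24776 and 27670 on SD and 25851 and 26987 on HFD, with Lmod1 (log2FC -3.08), Myocd (-2.87) and Pdgfrb (-1.03) lower and Cspg4 (1.49) higher on HFD, each called. The part of these markers in the changes was not tested. This split of the members into higher and lower changed with the scaling. With equal library totals, which moved the median of all genes by -0.40, 2 genes were higher and 10 lower. Upper-quartile scaling gave 6 higher and 5 lower. The count was 1 with the WT HFD libraries averaged, 2 without WT SD replicate 1 or WT HFD replicate 1, 4 without WT HFD replicate 2 and 7 without WT SD replicate 2.

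In KO adipocytes the diet moved 1 gene of 31, 3.23%, against 1.07 percent of all genes tested (0.383 percent higher, 0.691 percent lower). It was Acta1, which went from 1359 and 2207 normalized counts on SD to 334 and 66 on HFD, a log2FC of -3.53 (SE 0.52, adjusted p = 0.011). The count was 0 with the WT HFD libraries averaged or without KO SD replicate 2 or either WT HFD library, and 4 without KO SD replicate 1 or KO HFD replicate 1.

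**Figure D3:**
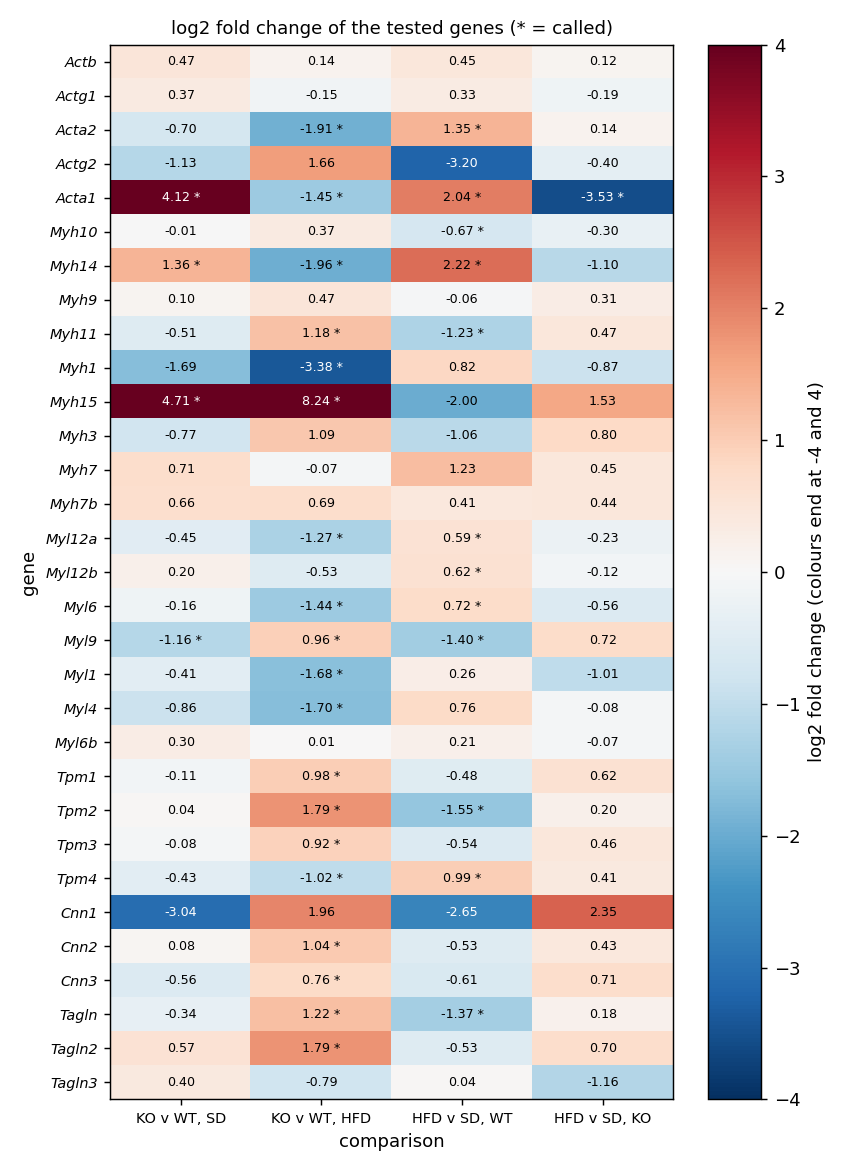
Log2FC of the 31 tested members in 4 comparisons, with an asterisk where a gene was called; colours end at -4 and 4. The comparison on HFD holds 19 calls, that on SD 4, the diet in WT 12 and the diet in KO 1.

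A term for the interaction of genotype and diet asked whether the genotypes differed by another amount on HFD than on SD. It was called for 12 of the 31 genes, 38.7%, against 17.4 percent of all genes tested, 8 more positive on HFD (8.69 percent of all genes) and 4 more negative (8.73 percent of all genes). Among those called, Acta1 differed most, its log2FC on HFD minus that on SD being -5.57 (SE 0.74, adjusted p = 0.0022), followed among the more negative by Myh14 (-3.32, adjusted p = 0.0029), and both were called under each of the 10 alternatives. The more positive were Myl9, Myh11, Tpm1, Tpm2, Tpm3, Cnn3, Tagln2 and Myh15. The value of Myh15, which stood at 0 in both WT HFD libraries, moved between 2 and 6.35 over the 10 alternatives, and its call was lost under 6 of them and without any 1 library other than WT SD replicate 1 and KO SD replicate 1. For Acta2 the interaction was -1.21 (95% interval -2.35 to -0.07, adjusted p = 0.13) and for Tpm4 -0.58 (adjusted p = 0.11), so a difference between the diets was not shown for them. The count was 3 with the WT HFD libraries averaged, without WT SD replicate 1 and without WT HFD replicate 1, 4 without WT HFD replicate 2, 5 without KO SD replicate 2 and 6 without KO HFD replicate 2. Scaled to the same total, 11 were more positive and 3 more negative.

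Genes that act on these filaments were described from 3 lists. On HFD, 32.2 percent of all genes tested were called, 17.1 percent higher and 15.1 percent lower. Of 15 regulators of contraction, 1 rose and 1 fell on HFD, a smaller share than among all genes. The gene that fell was the kinase Rock2, which promotes light chain phosphorylation, with 11892 and 12290 normalized counts for WT and 4544 and 5263 in KO (log2FC -1.31, adjusted p = 4e-05). Of 30 actin-binding genes and SRF cofactors, 10 rose and 5 fell. Synpo2, an actin-bundling protein, went from 15397 and 15068 to 736 and 1149 (-4.05, adjusted p = 3.3e-07). Cald1, which encodes caldesmon, went from 7179 and 7023 to 2932 and 3005 (-1.26, adjusted p = 4.3e-05). Among the rises, Lmod1, a nucleator of smooth muscle filaments, went from 24 and 14 to 117 and 156 (2.81, adjusted p = 0.00015), Tmsb4x, which binds actin monomers, from 2559 and 2621 to 7482 and 7894 (1.57, adjusted p = 1e-04), Tmsb10 from 115 and 87 to 264 and 324 (1.54, adjusted p = 0.0012) and Tmod1 from 11 and 36 to 105 and 112 (2.38, adjusted p = 0.0082). Of 21 striated muscle genes, 15 were tested and 3 rose, a share near that of all genes: Mybpc3 (10 and 16 against 182 and 177, log2FC 3.72, adjusted p = 2.6e-05), Myom1 (93 and 81 against 250 and 337, 1.73, adjusted p = 8e-04) and Tnnt3 (4 and 0 against 16 and 25, 3.23, adjusted p = 0.041). On SD, where 4.71 percent of all genes tested were called, the calls were 0 and 0 in the first list, 1 higher (Dstn) and 1 lower (Synpo2) in the next and 1 higher (Mybpc3) in the last.

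Markers of other cells moved with these genes, and their part in the changes was not tested. The 10 macrophage markers, all present in the table, summed to 2191 and 2290 normalized counts in WT on HFD and 58092 and 44556 in KO on HFD, and to 5083 and 4840 against 41056 and 25290 on SD. The 6 fibroblast and progenitor markers summed to 8127 and 8387 against 32095 and 36269 on HFD, and the 6 endothelial markers to 14401 and 15042 against 19092 and 29519. The 8 adipocyte markers, all above 0 in every library, summed to 378002 and 369863 against 187203 and 93386. The 10 markers of smooth muscle and mural cells did not move as 1: they summed to 25851 and 26987 against 13901 and 15441, with Mcam (log2FC -2.11, adjusted p = 9.6e-06) and Cspg4 (-0.74, adjusted p = 0.041) lower and Pdgfrb (1.39, adjusted p = 0.00037) and Lmod1 higher. The 6 mesothelial markers summed to 179 and 214 for WT against 327 and 715 for KO on HFD, with Wt1, which makes up most of the KO sums, higher (log2FC 3.0, adjusted p = 1.3e-05) and Msln lower (-3.37, adjusted p = 0.047), and to 230 and 223 against 281 and 409 on SD; Krt19, Lrrn4 and Msln were at 0 in at least 1 library. On SD the sums were 14186 and 12255 for WT against 18439 and 10619 for KO for fibroblast and progenitor markers, 29069 and 23868 against 22539 and 12316 for endothelial markers, 207499 and 213842 against 166598 and 241558 for adipocyte markers, and 24776 and 27670 against 18982 and 16082 for smooth muscle and mural markers. The 8 striated muscle markers summed to 535 and 553 for WT on SD and 648 and 825 for KO on SD. On HFD they summed to 564 and 562 for WT and 475 and 688 for KO. The sum was highest in KO SD replicate 2, most of it Ttn and Neb, while Pvalb, Tnnc2, Tnni2 and Tnnt3 were at 0 in at least 1 library. Acta1 was also highest in KO SD replicate 2 (2207). KO HFD replicate 2, with the next highest sum, had the lowest Acta1 (66). In these bulk samples fewer cells of a type and less RNA per cell cannot be told apart.

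**Figure D4:**
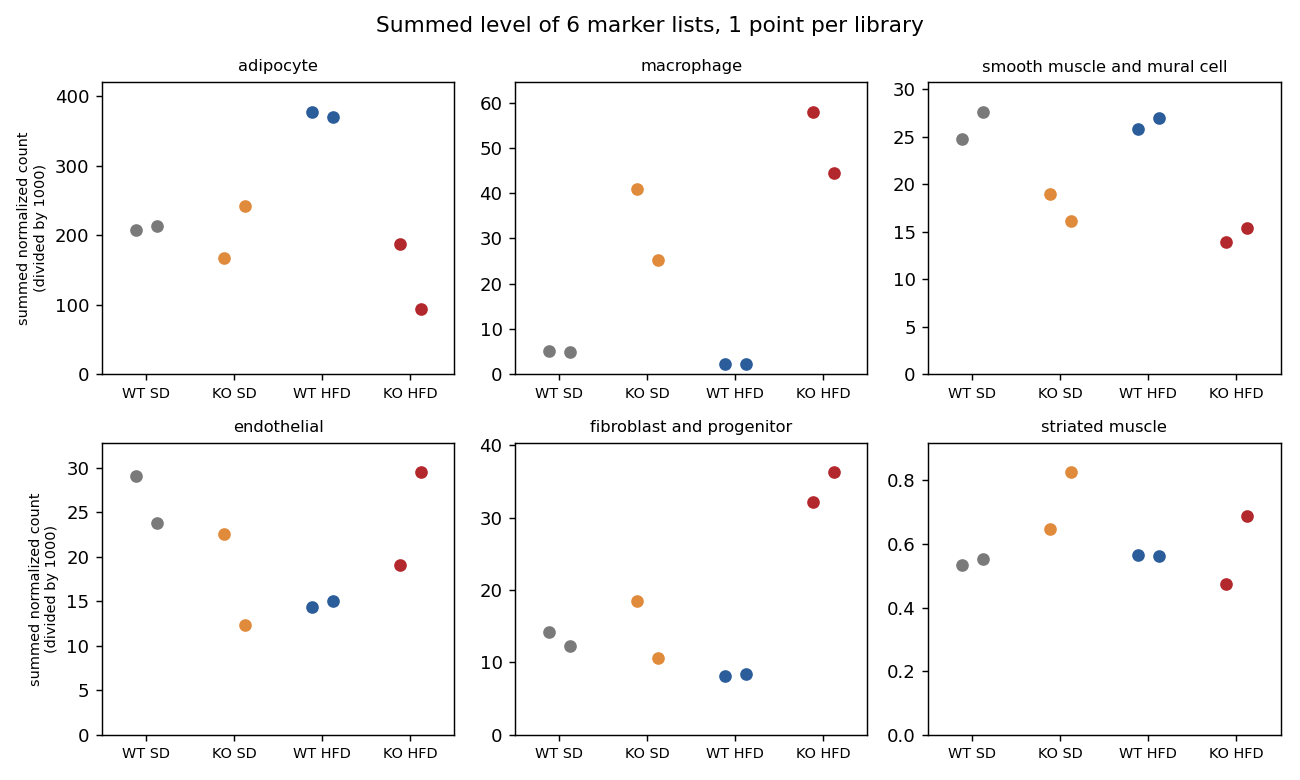
Summed normalized counts (axis divided by 1000) of 6 marker lists in each library (1 point per library). Macrophage and fibroblast markers are higher and adipocyte markers lower in each KO library than in either WT library on HFD.

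The members left were at the lower end. Actg2, the enteric smooth muscle actin, had 7 and 20 normalized counts in WT on SD, 6 and 4 in KO on SD, 1 and 0 in WT on HFD and 1 and 9 in KO on HFD, and was not called. Myh3, the embryonic heavy chain, lay between 7 and 39, Myh7, the slow heavy chain, between 3 and 17, and Myh7b between 11 and 62 normalized counts, with no call. The 8 members that were not tested, Myl2, Myl3, Myl7, Actc1, Myh2, Myh4, Myh8 and Myh13, lay between 0 and 14 normalized counts in single libraries, among them the cardiac actin Actc1 at 0 in 5 libraries. A value listed at 0 allows up to 3 reads.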

How the data were processed

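Isolated epididymal white adipocytes were profiled by RNA-seq in 8 libraries, 2 for each of 4 groups taken from the sample labels. The authors depleted ribosomal RNA, prepared stranded libraries, aligned reads with STAR 2.5.2b to GRCm38, counted them with featureCounts 1.5.1 without reads over several genes or places, and normalized with DESeq2 1.14.1; whether counting used strand is not given in the sources used here. The values the authors deposited are a score, each count scaled by the size factor of its library, then rounded. Because of the rounding, reads could not be recovered gene by gene and no count model was run. The depth, 14.0 to 22.3 M reads on genes, comes from the spacing of low values. The floor of 3 reads covers counting error only, and intervals of log2 fold changes come from the fit and rest on the spread between libraries.

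Genes with a mean of at least 5 (18800 of 30387) were fitted with limma 3.58.1 (lmFit, contrasts.fit, eBayes with trend) under R 4.3.3, using log2(value + 1), with 4 group means in 1 fit and 4 residual and 8.59 prior degrees of freedom. P-values were adjusted over all genes tested. For the comparison of genotypes on HFD, data were simulated with 18800 genes, 200 of them changed. Of 100 genes changed by 2 on the log2 scale 62 were recovered, and of 100 changed by 1, 43. There were 6 false calls and none in the wrong direction. The real comparison called 32.2 percent of all genes. The simulated spread followed only the mean level of a gene. These rates therefore need not hold for the real data. Exon lengths and shared 75-base stretches came from GENCODE vM21 and promoters from RefSeq. Every member is accounted for; values in each library are given for those with a mean of at least 50 or a call, and at most 6 called genes from each other list. A called gene of the regulators of contraction is not reported here. The members and lists were chosen with earlier results of these data known. Alternatives were other pseudocounts, filters, scalings, limits, a 2-group fit, robust eBayes, a replicate block, averaged WT HFD libraries and leaving out each library. The 11 alternatives counted for a single gene leave out the other limits and the left-out libraries. For the interaction they are 10, without the 2-group fit. Python 3.11.15, numpy 2.4.6, pandas 2.3.3 and matplotlib 3.10.9 were used.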

Additional observations from a re-analysis of the deposited data

Results flagged for a closer look

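For 12 members the limma test of the interaction of genotype and diet was called. On the log2 scale the genotype effect on HFD minus that on SD was -5.57 for Acta1 (adjusted p = 0.0022), -3.32 for Myh14 (adjusted p = 0.0029), -1.28 for Myl6 (adjusted p = 0.0083) and -0.82 for Myl12a (adjusted p = 0.02). It was positive, at 2.12 for Myl9 (adjusted p = 0.0082), 1.75 for Tpm2 (adjusted p = 0.031), 1.69 for Myh11 (adjusted p = 0.015), 1.32 for Cnn3 (adjusted p = 0.026), 1.23 for Tagln2 (adjusted p = 0.023), 1.09 for Tpm1 (adjusted p = 0.031) and 0.99 for Tpm3 (adjusted p = 0.022). For Myh15 it was 3.53 (adjusted p = 0.048), but this gene stood at 0 in both WT HFD libraries, its value ran from 2 to 6.35 over the alternatives, and the call was lost under 6 of 10. The call of Myl12a was lost under 4 of the 10 alternatives, that of Tpm2 under 3, those of Cnn3, Myh11, Tagln2, Tpm1 and Tpm3 under 2 each and those of Myl6 and Myl9 under 1 each. These 9 calls were also lost without WT SD replicate 1, all but that of Myl9 without WT HFD replicate 1, and all but those of Myl6 and Myl9 without WT HFD replicate 2 or KO SD replicate 2. Those of Cnn3, Tagln2, Tpm1, Tpm2 and Tpm3 were lost without KO HFD replicate 2, and those of Cnn3, Tagln2 and Tpm1 without WT SD replicate 2, whereas those of Acta1 and Myh14 held under each of the 10 and without any 1 library. With 2 libraries a group, no library could be tested for standing apart from its group.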

How the results depend on the processing

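Of the member changes called in the 5 comparisons, none turned its direction under any alternative. With the mean of both WT HFD libraries as 1 sample, 12 members were called between genotypes on HFD, 2 on SD, 1 for the diet in WT, 0 for the diet in KO and 3 for the interaction; this fit rests on fewer samples. Without a filter on low values the counts were 2 on SD, 4 for the diet in WT, 0 for the diet in KO and 3 for the interaction, with more genes in the adjustment. On SD a pseudocount of 0.1 and a fit of only the 2 groups compared each gave 2, and for the diet in KO the 2-group fit gave 0. A limit of 1 on the log2 fold change gave 7 for the diet in WT. Leaving out 1 library at a time gave 12 to 18 on HFD, 2 to 4 on SD, 2 to 13 for the diet in WT, 0 to 4 for the diet in KO and 3 to 14 for the interaction. Scaled to the same total, all genes split into 4618 higher and 1367 lower on HFD (3213 and 2840 as reported), 470 and 3568 for the diet in WT (1643 and 1734) and 2611 and 619 for the interaction (1633 and 1641). Quantile normalization gave 12 and 8 members on HFD and 3 and 6 for the diet in WT. The labels do not say that a replicate number marks a shared batch, and deviations of same-numbered libraries correlated between -0.3 and 0.11 over the pairs of groups; with the replicate block the counts were 18, 2, 11, 1 and 11. Where not stated, the cause of a change was not tested. The small number of libraries a group and unknown strand use limit these values.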
